A study of Prunus armeniaca and Prunus mume with 8 samples.

Results

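Fruit of Ruantiaohongmei, a cultivar of Prunus mume (Japanese apricot), was compared with fruit of Manao, a cultivar of Prunus armeniaca (apricot), on 4 of the 8 arrays of the series. The 4 arrays were those whose labels name either cultivar, 2 for each, and they lay in row 1 of the only slide. The series set out, by its title, to find genes of fruit development that differ in expression between these 2 species. No treatment was given, and each array carried fruit RNA of mixed stages, taken from stages 1 to 8 in weeks 3 to 13 after bloom, where stages 1 to 4 are the first rapid growth of the fruit and stages 6 to 8 the second. The sources used here give neither the stages that went onto each array nor the trees behind the 2 arrays of a cultivar. The p-values therefore measure only how far arrays of a cultivar spread, pooled over all 8 arrays of the series, and that spread may be technical. Manao lay in slide columns 1 and 2 and Ruantiaohongmei in columns 3 and 4, so cultivar and column cannot be told apart within the pair. In row 2 the columns were the other way round, with Xiyeqing (P. mume) in columns 1 and 2 and Zhenkui (P. armeniaca) in columns 3 and 4, which gave a second pair of the same species with no array in common.

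Fruits of the genus Prunus grow in a double sigmoid, with a pause while the stone hardens around the seed. Ripening of climacteric fruit follows a burst of ethylene, made from S-adenosylmethionine by ACC synthase and ACC oxidase, and the flesh then softens as expansins, beta-galactosidases and polygalacturonases loosen the wall. Organic acids, sugars, carotenoids, flavonoids and cyanogenic glucosides set the taste, colour and bitterness of the fruit. P. mume fruit is known as sour and is mostly processed unripe, while apricot is eaten ripe.

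Levels are log2 signals relative to the 75th percentile of each array, so a level of 0 equals that percentile. Each probe has its own scale, and levels of different probes are not compared. A call is a Benjamini-Hochberg adjusted p under 0.05 in limma over 9125 tested probes. Between 7807 and 8944 of 10384 probes were well above background on the 4 arrays. Probes were built from sequences of several Prunus species, and probe sequences were not used here. A lower RNA level and a weaker match of a probe to the P. mume transcript therefore cannot be told apart for a single probe, nor can fewer cells of a type and less RNA per cell in whole fruit. Descriptions exist only for probes in the authors' deposited lists of at least 2-fold differences, so neither the members of a gene list nor its direction are independent evidence.

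The 2 Ruantiaohongmei arrays stood further apart than the 2 Manao arrays. Their median absolute difference was 0.34 on the log2 scale against 0.18 in Manao, they correlated at r = 0.97 against 0.992 across probes, and replicate 2 had the fewest probes well above background (7807, against 8542 on replicate 1). The arrays of Ruantiaohongmei correlated with those of Xiyeqing at 0.965 to 0.971, a range that includes the value between the Ruantiaohongmei arrays themselves. On 27 tested probes (0.296%) the Ruantiaohongmei arrays were at least 16-fold apart, and replicate 2 was the higher on all 27. In Manao 3 probes were that far apart, and in Xiyeqing 44, again with replicate 2 the higher on all 44. None of the 27 was called against Manao. The 27 held 13 of the 236 described proteins (5.51%), and these 13 were singled out after their values were seen.

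The 13 held 3 probes of the seed and stone list and 4 ACC synthases. Oleosin (AY962832.1), which coats oil bodies, stood at -5.66 on Ruantiaohongmei replicate 1 and 1.06 on replicate 2, and at -6.40 and -5.34 in Manao. The almond oleosin ole1 (X78118.1) stood at -5.09 and 1.67, against -5.93 and -4.57 in Manao. The seed storage protein gene pru2 (X78120.1) stood at -7.96 and 0.77, against -5.40 and -4.99 in Manao. For all 3 genes Ruantiaohongmei replicate 2 stood far above the other 3 arrays of the pair. On Xiyeqing and Zhenkui arrays the 3 lay between -8.36 and -4.04.

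ACC synthase 4 (EU034653.1), of the enzyme that makes the ethylene precursor, stood at -4.62 on Ruantiaohongmei replicate 1 and 2.79 on replicate 2, against -3.61 and -3.005 in Manao. Of the 10 measured probes for ACC synthases and oxidases, 4 were at least 16-fold apart in Ruantiaohongmei, and all 4 were ACC synthases. A lipoxygenase (EF568783.1), which starts the oxidation of fatty acids to aroma compounds, stood at -7.11 and 1.27, against -6.04 and -5.35 in Manao. A class IV chitinase (EF640689.1), which cuts fungal cell walls, stood at -2.85 and 5.25, against -2.48 and -2.65 in Manao. Both of these probes were also higher on replicate 2 of Xiyeqing (-2.24 against -7.37 for the lipoxygenase, 1.91 against -3.30 for the chitinase). The knotted-like regulator KNOPE1 (DQ358050.1) stood at -6.92 and -1.72, against -5.83 and -4.03 in Manao. Pyrophosphate-dependent phosphofructokinase (U93272.1), an enzyme of glycolysis, differed in its pattern: it stood at 0.38 on replicate 1 and 4.66 on replicate 2, with Manao at 5.30 and 4.46.

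The endo-polygalacturonases, which cut pectin in softening fruit, were also higher on Ruantiaohongmei replicate 2. DQ340809.1 stood at -5.17 and 1.00 in Ruantiaohongmei, against -6.22 and -5.07 in Manao. Another 5 described endo-polygalacturonase probes did not enter the test, because no cultivar had both arrays well above background. On Ruantiaohongmei replicate 2 these 5 read 5.56 (AF095577.1), 4.48 (AJ890090.1), 5.72 (DQ340810.1), 4.34 (EF568784.1) and 4.97 (X76735.1). On Ruantiaohongmei replicate 1 they lay between -7.96 and -7.39, and in Manao between -8.21 and -6.26, not well above background on any of those 3 arrays. All 5 were also well above background on Xiyeqing replicate 2, at -1.11 to 0.34, against -8.36 to -8.31 on Xiyeqing replicate 1, and on neither Zhenkui array. The seed protein probe pru1 (X78119.1) was also outside the test and read -7.69 and 2.44 in Ruantiaohongmei. None of the 13 proteins had a call against Manao. Other wall genes were higher on replicate 1 instead, such as beta-galactosidase EF568776.1 (5.63 and 4.69) and expansin EXP3 (AF350938.1, 1.11 and 0.02). What sets the 2 arrays apart was not tested.

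**Figure D1:**
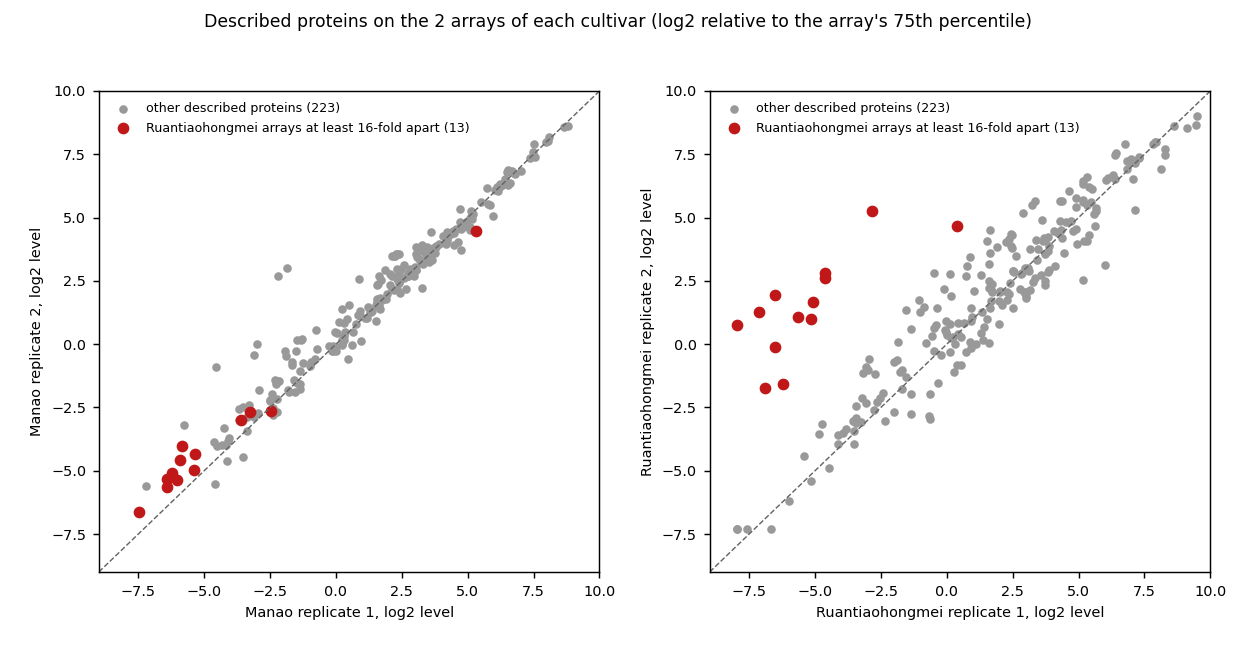
Log2 levels of the 236 tested described proteins on replicate 1 (horizontal) and replicate 2 (vertical) of Manao (left) and of Ruantiaohongmei (right); the dashed line marks equal levels. The 13 proteins in red, at least 16-fold apart in Ruantiaohongmei, all lie above the line there.

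Across all probes, 1953 of 9125 (21.4%) were called between Ruantiaohongmei and Manao. Of these 813 (8.91%) were higher and 1140 (12.5%) lower in Ruantiaohongmei, and 689 and 906 of them differed at least 2-fold. Among the largest differences the balance was the other way, with 76 probes at least 16-fold higher and 50 at least 16-fold lower. With normexp background correction the split turned, to 917 higher and 786 lower, and no probe called lower in the main setting was then called higher. The median difference over all tested probes was -0.11 (0.17 with that correction), and the median of the 236 described proteins was -0.24. Of these 236 proteins 57 were called higher and 56 lower, larger shares than over all tested probes. Counts within the gene lists below stand beside these shares, and many are near them. The smallest difference that passed was 0.63 on the log2 scale. Without Manao replicate 1 the count fell to 535, and without Manao replicate 2 to 643. The counts within the gene lists fell with it: of 6 higher and 3 lower among the other defence proteins none was left without either Manao array, and of 5 lower reference genes none without replicate 1 and 1 without replicate 2. The 9 calls of PGIP held without either.

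The direction of the calls was also counted by the origin of the probe sequence. Over all 1953 calls 813 were higher (41.6%) and 1140 lower in Ruantiaohongmei. Of the called probes whose identifiers start with CB or CV, which where described come from apricot fruit libraries, 113 were higher and 336 lower in Ruantiaohongmei (74.8% lower). Contigs divided alike, 101 higher and 297 lower (74.6%). Clusters with the prefix actca, for which the sources used here name no origin, divided the other way, 525 higher and 414 lower (44.1%). Other GenBank entries gave 74 higher and 93 lower (55.7%). Among tags of the library from green apricots 26 were higher and 86 lower (76.8%). The half-ripe library gave 27 and 51 (65.4%), and the ripe library 17 and 25 (59.5%). Whether these shares reflect the species of the probe was not tested.

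Polygalacturonase-inhibiting protein (PGIP), a wall protein that blocks the pectin-degrading enzymes of fungi, gave the highest single protein difference in Ruantiaohongmei, on probe AY903225.1. All 9 described probes were called higher, by 6.32 to 7.64 on the log2 scale, beside 8.91% of all tested probes and 57 of the 236 described proteins. AY903225.1, from P. mume, stood at -4.62 and -3.85 in Manao and at 3.88 and 2.94 in Ruantiaohongmei, a difference of 7.64 ± 0.93 (SE, adjusted p = 0.00239). AY903221.1, from peach, stood at -3.69 and -2.99 against 4.10 and 3.07, a difference of 6.93. AY903223.1 differed by 7.13. Probes from peach, P. mume, P. americana, P. salicina and almond all lay on the same side, with both Ruantiaohongmei arrays above both Manao arrays. The 9 probes are homologues of 1 family and may share transcripts, so they are not 9 separate observations.

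Proteins of the PR-10 family, the Bet v 1-like allergens of stone fruit, were likewise higher. All 11 described probes were called, by 2.36 to 7.23 with a median of 4.41. A major cherry allergen (AY540509.1) stood at -1.25 and -0.76 in Manao and at 7.15 and 5.30 in Ruantiaohongmei, a difference of 7.23 ± 0.60 (SE, adjusted p = 0.000583). The peach PR10 (EU117120.1) stood at 2.11 and 3.49 against 7.89 and 7.99, and its plum counterpart (EU117125.1) at 1.62 and 2.68 against 7.16 and 7.17. Without Manao replicate 1 only 1 of the 11 was called (median 3.79, adjusted p = 0.0533 for EU117120.1 and 0.0565 for EU117125.1). Without Manao replicate 2 there were 8 calls, without Ruantiaohongmei replicate 1 there were 6 and without its replicate 2 there were 9, and the median was between 4.46 and 5.06. The probes of this family also cover close homologues that may share transcripts. For Xiyeqing minus Zhenkui the medians were 5.71 for PGIP and 4.56 for PR-10, beside 6.79 and 4.41 here. None of the 20 probes was called for a difference between the pairs, which does not show that the differences were equal. For AY903225.1 the difference between the pairs was 0.85 ± 1.32 (SE), where the median SE over all tested probes was 0.39.

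**Figure D2:**
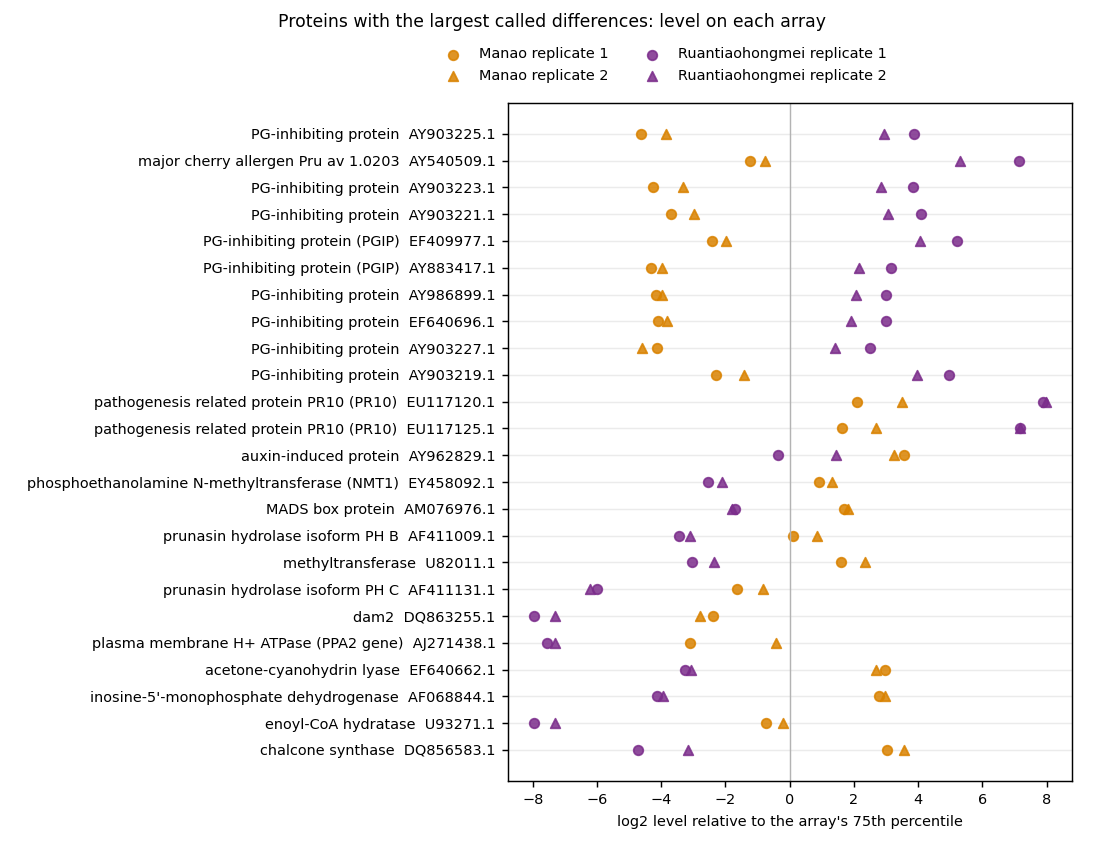
Log2 level (horizontal) on each of the 4 arrays for the 12 proteins called higher and the 12 called lower in Ruantiaohongmei with the largest differences, with the deposited identifier of each probe. The arrays of the 2 cultivars do not overlap for any of the 24 proteins, as the choice of proteins requires.

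Other defence proteins divided. Of 15 measured, 6 were called higher, 3 lower and 6 were not called, with a median of 1.71. The class 4 pathogenesis-related proteins AF362989.1 (0.30 and 0.82 in Manao, 3.36 and 5.66 in Ruantiaohongmei) and EF640658.1 (-0.04 and 0.46 against 2.89 and 5.18) rose by 3.95 and 3.82. The largest difference of the list, 6.14 for beta-1,3-glucanase (AJ002748.1, -3.52 and -4.46 against 0.87 and 3.44), was not called (adjusted p = 0.121). Both class 4 proteins were higher on Ruantiaohongmei replicate 2 than on replicate 1, and both calls were lost without replicate 2, where the differences were 2.80 and 2.67. In all, the calls were lost in 5 (AF362989.1) and 8 (EF640658.1) of 19 alternatives, for both also with no filter. Lipid transfer protein 3 (FJ652103.1), of a family that carries lipids to the fruit surface and includes fruit allergens, rose by 1.84 (2.39 and 2.44 against 3.60 and 4.91). LTP1 (AY093700.1) fell by 0.85 instead (5.76 and 5.53 against 4.73 and 4.86). Defensin 1 (AY078426.1), an antimicrobial peptide, fell by 1.65 (7.57 and 7.38 against 5.18 and 6.46). The NPR1-like protein (DQ149948.1), named after the salicylic acid response regulator of Arabidopsis, fell by 1.08. Its call was lost in 4 of 19 alternatives, normexp correction among them. In Xiyeqing against Zhenkui the same list had a median of 0.28, and no member was called for a difference between the pairs. Class 4 pathogenesis-related proteins differed there by 0.39 (AF362989.1) and 0.40 (EF640658.1).

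Chalcone synthase (DQ856583.1), the first enzyme of flavonoid synthesis, was the protein with the largest fall in Ruantiaohongmei. It stood at 3.05 and 3.55 in Manao and at -4.73 and -3.16 in Ruantiaohongmei, a difference of -7.24 ± 0.47 (SE, adjusted p = 0.000203), and it was well above background on all 4 arrays. The fall was not shared by the other P. mume cultivar: Xiyeqing stood at 3.67 and 3.62 and Zhenkui at 4.08 and 4.11, a difference of -0.45. The difference between the pairs was -6.79 ± 0.67 (SE, adjusted p = 0.0141). Its call was lost when Manao replicate 2 or any 1 array of row 2 was left out (adjusted p = 0.0757 to 0.103), with values of -6.54 to -6.82, and it held without either Ruantiaohongmei array.

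Inosine-5'-monophosphate dehydrogenase (AF068844.1), which commits purine synthesis to guanine nucleotides, was likewise far lower in Ruantiaohongmei. It stood at 2.80 and 2.96 in Manao and at -4.12 and -3.94 in Ruantiaohongmei, a difference of -6.91 ± 0.21 (SE, adjusted p = 9.05e-06). Xiyeqing stood at 2.16 and 2.26 and Zhenkui at 2.97 and 3.27, a smaller difference in the same direction that was also called (-0.91, adjusted p = 0.0205). The difference between the pairs was -6.001 ± 0.30 (SE, adjusted p = 0.000826), and the call held under all 18 alternatives in which it could be computed. The undescribed Contig1397 differed by -6.93 between Ruantiaohongmei and Manao and by -5.78 between the pairs, and by -1.15 between Xiyeqing and Zhenkui (adjusted p = 0.00831). Whether Contig1397 and AF068844.1 share a transcript was not tested.

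Only 18 probes (0.197%) were called for a difference between the pairs, 3 of them more positive and 15 more negative in row 1, where 697 had an unadjusted p under 0.05. On 8 of the 15, both Ruantiaohongmei arrays stood below all 6 other arrays. Of the 8, chalcone synthase, AF068844.1 and Contig1397 were well above background on both Ruantiaohongmei arrays. The other 5 were not well above background there: Contig2223, Contig2070, actca_Cluster1578 and the green-apricot tags CB819802.1 and CB819565.1. CB819802.1 stood at the lowest value of the array on both Ruantiaohongmei arrays and at -1.02 in the mean of Manao, -1.03 in Xiyeqing. The remaining 7 were probes of the actca clusters on which the mean of Xiyeqing stood above those of the other 3 cultivars. Higher only in Ruantiaohongmei were actca_Cluster2171 (-0.40 and -0.47, against -4.46 in the mean of Manao and -4.60 in Xiyeqing), CV044876.1, a green-apricot tag, and CB821656.1. All 18 were picked by the test they are described with, and the levels are given as a description. Slide row cannot be told apart from the choice of cultivars. Of the 1953 calls of this pair, 1437 were also called in the same direction for Xiyeqing against Zhenkui. That is 73.6% of these and 55.8% of the 2577 calls there, out of 9125 tested probes. Both sets of calls used 1 estimate of spread per probe from all 8 arrays, so they are not independent.

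**Figure D3:**
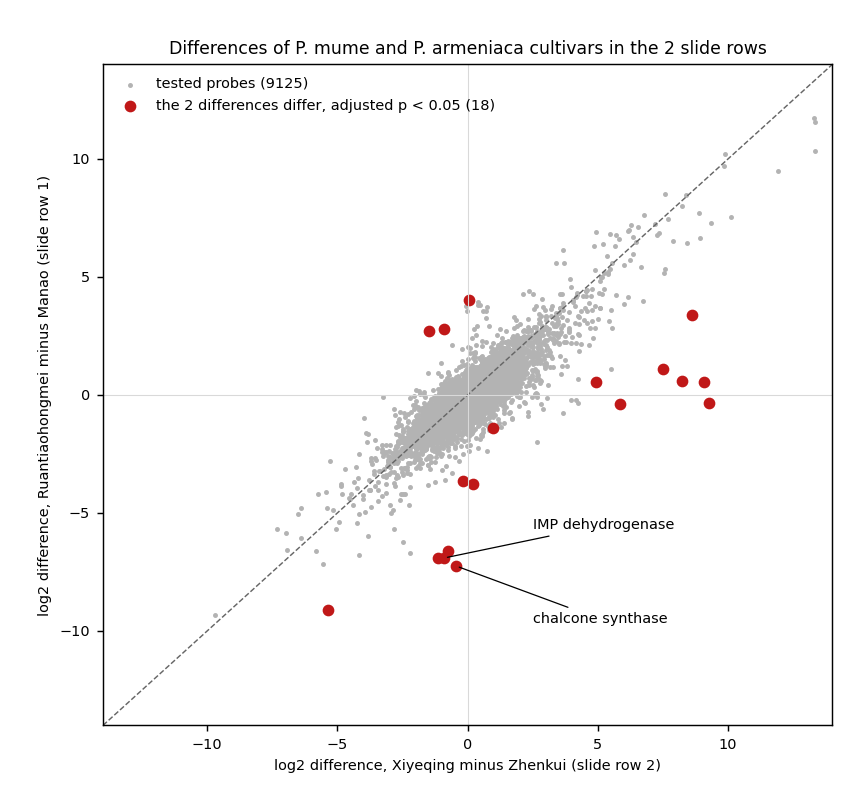
Log2 difference of Ruantiaohongmei from Manao (vertical) against that of Xiyeqing from Zhenkui (horizontal) for 9125 tested probes, with the line of equal differences. The 18 red probes were called for a difference between the pairs; chalcone synthase lies at -0.45 on the horizontal axis and -7.24 on the vertical one, and IMP dehydrogenase at -0.91 and -6.91.

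**Figure D4:**
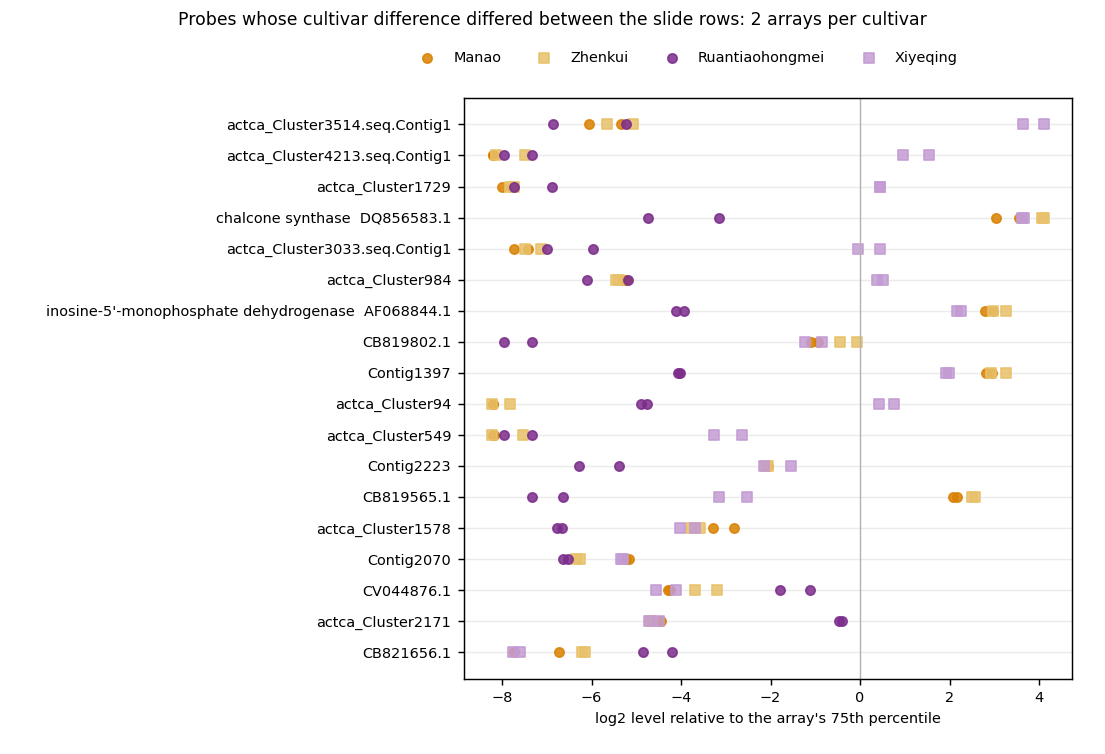
Log2 levels on all 8 arrays, 2 per cultivar, of the 18 probes called for a difference between the pairs, ordered by that difference. Both Ruantiaohongmei arrays (dark purple) lie below all others on 8 probes and above all others on 3, and the Xiyeqing arrays (light purple) above all others on the remaining 7.

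The other phenylpropanoid genes moved less. Of 12 measured, 2 were called higher, 2 lower and 8 were not called, with a median of -0.96. The second member that fell, chorismate mutase (AJ004916.1), which leads towards phenylalanine, did so by 0.97 (3.01 and 3.06 against 2.03 and 2.10). A MYB transcription factor (FJ860135.1, isolate pkMYB2) rose by 2.99 (-4.59 and -5.53 against -1.37 and -2.76). Cinnamoyl-CoA reductase (AF298828.1), which feeds lignin synthesis in the hardening stone, rose by 1.04 (2.58 and 2.63 against 3.72 and 3.57). Its homologue AY012685.1 differed by 0.90 (3.04 and 2.94 against 3.89 and 3.88) without a call, but was called with the 4 arrays of row 1 alone. On the Xiyeqing arrays, which enter the main estimate of spread, it stood at 1.79 and 4.85. Caffeic O-methyltransferase (X83217.1, 3.61 and 3.55 against 5.16 and 2.54) was not called. The list of seed and stone markers, which holds these 3 stone genes and the 3 seed genes above, had a median of 1.32 with 1 of 6 called, and a median of 0.56 without Ruantiaohongmei replicate 2.

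Enzymes that release cyanide moved in opposite directions. Prunasin hydrolases split the glucoside prunasin, and lyases then free hydrogen cyanide from the product. Of 7 measured probes 2 were called higher and 4 lower, with a median of -1.07. The putative acetone-cyanohydrin lyase (EF640662.1) stood at 2.97 and 2.69 in Manao and at -3.25 and -3.08 in Ruantiaohongmei, a fall of 5.99 ± 0.25 (SE, adjusted p = 3.38e-05). The PH B isoform of prunasin hydrolase (AF411009.1) stood 3.76 lower (0.10 and 0.86 against -3.46 and -3.10). PH C (AF411131.1) was not well above background in Ruantiaohongmei and was at least 17.2-fold higher in Manao (-1.65 and -0.82). Mandelonitrile lyase MDL4 rose, by 1.25 (AF043186.1, a call lost in 6 of 19 alternatives) and 1.32 (AF053884.1, 2.47 and 2.96 against 3.84 and 4.23). The almond mandelonitrile lyase (Y08211.1) was the fourth lower call, at -1.07.

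Such a bound is the mean of the brighter cultivar against the lowest signal well above background on each dim array, or the probe's own signal where that was higher, and the adjusted p of such a probe belongs to the difference as scaled. It applied to 3 more proteins. Enoyl-CoA hydratase (U93271.1), an enzyme of fatty acid oxidation, was at least 29.4-fold higher in Manao (-0.73 and -0.21, adjusted p = 0.0001 as scaled). The plasma membrane proton pump PPA2 (AJ271438.1) was at least 12.04-fold higher (-3.10 and -0.41), and the dormancy-associated MADS-box gene dam2 (DQ863255.1) at least 6.72-fold higher (-2.39 and -2.80). U93271.1 and DQ863255.1 read the lowest value of the array on both Ruantiaohongmei arrays, as did 31 tested probes in all. With normexp background correction the call of PPA2 was lost (adjusted p = 0.0556). The bounds hold only for the main scaling. Across the alternatives the log2 differences smallest in size were -1.76 for PPA2, -1.14 for dam2, -2.85 for U93271.1 and -1.97 for PH C. All of these are smaller falls than the bounds.

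The methyltransferase U82011.1 fell by 4.67 (1.58 and 2.36 against -3.05 and -2.34), and phosphoethanolamine N-methyltransferase NMT1 (EY458092.1), which makes the head group of phosphatidylcholine, by 3.45 (0.92 and 1.32 against -2.55 and -2.11). Of 10 MADS-box, dormancy and flowering regulators none was called higher and 3 lower, with a median of -1.70. A putative MADS-box protein (AM076976.1) stood at 1.69 and 1.81 in Manao and at -1.70 and -1.78 in Ruantiaohongmei, a difference of -3.49 ± 0.24 (SE, adjusted p = 0.000229). MADS2 (DQ102369.1) fell by 1.40. None of the 5 homeobox and NAM regulators was called; KNOPE6 (GQ281773.1) differed most, by -1.48 (0.21 and 0.01 against -1.72 and -1.01, adjusted p = 0.0836).

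In ethylene synthesis, ACC oxidases differed with less spread than the synthases. Of 10 probes for ACC synthases and oxidases 2 were called higher and none lower, and all 10 differences were positive, with a median of 2.17. ACC oxidase 2 (AJ890087.1), which makes ethylene, stood at -0.26 and -0.07 in Manao and at 1.72 and 2.36 in Ruantiaohongmei, a rise of 2.21. The ethylene-forming-enzyme-like dioxygenase (U97530.1) rose by 2.23 (-0.01 and -0.13 against 2.27 and 2.05). Without Ruantiaohongmei replicate 2 the median was 0.79 with 1 call, and without replicate 1 it was 2.83 with 7 calls. In ethylene signalling 2 of 9 rose and 1 fell. The transcription factors EIL1 (EF031065.1) and EIL2 (EF031066.1) rose by 1.17 and 1.01, and the receptor ERS1 (AY061640.1), which represses the response in the absence of ethylene, fell by 1.25 (2.32 and 2.19 against 0.95 and 1.07).

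Wall genes divided within each family. Of 10 expansins, 1 was called higher and 3 lower, with a median of -1.76. Expansin exp1 (AF367459.1) fell by 1.95 (4.16 and 4.06 against 2.35 and 1.97), alpha-expansin AF448467.1 by 1.79 and expansin 2 (AF297522.1) by 1.74. EXP3 (AF350938.1) rose by 2.92 ± 0.38 (SE, adjusted p = 0.00319), from -2.50 and -2.22 to 1.11 and 0.02. It differed by 0.38 between Xiyeqing and Zhenkui, and the difference between the pairs was not called (2.54, adjusted p = 0.27). Of 7 beta-galactosidases 2 were called higher and 3 lower, with a median of 2.40. EF568776.1 rose by 2.40 (2.77 and 2.75 against 5.63 and 4.69) and EF568777.1 by 2.91 (1.56 and 2.33 against 5.41 and 4.29), while GAL1 (AF184080.1) fell by 2.23 (4.18 and 3.95 against 1.97 and 1.71), AY874412.1 by 2.03 and beta-galactosidase 3 (GU462128.1) by 1.71. The rise of EF568777.1 was lost in 9 of 19 alternatives (adjusted p up to 0.219).

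Of 18 other wall enzymes and proteins 13 were tested, and 2 were called higher and 5 lower, with a median of -0.62. With no filter, which adds the 5 endo-polygalacturonases above, the median was 1.20 with 1 higher and 4 lower. The alpha-L-arabinofuranosidases, which remove arabinose side chains, rose by 1.20 (EF568775.1) and 1.21 (FJ601844.1, 1.62 and 1.57 against 2.82 and 2.77). These calls were lost in 6 and 8 of 19 alternatives. Mannan endo-1,4-beta-mannosidase (EF568778.1) fell by 2.06 (-0.54 and not called with normexp correction, adjusted p = 0.162), endo-beta-1,4-glucanase eg4 (AJ890498.1) by 1.84 (3.47 and 3.84 against 2.10 and 1.54) and extensin (EF640660.1), a structural wall protein, by 1.81. The call of extensin was lost in 12 of 19 alternatives.

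In the list of sugars, starch and sorbitol, 3 of 9 probes rose and none fell (median 0.89), beside 57 higher and 56 lower of the 236 described proteins. The hexose transporter stp2 (AF367455.1) stood at -0.98 and -0.88 in Manao and at 3.00 and 1.82 in Ruantiaohongmei, a rise of 3.34 ± 0.43 (SE, adjusted p = 0.00288). Glucose-6-phosphate 1-dehydrogenase (DQ451556.1), the entry of the pentose phosphate pathway, rose by 1.89 and a sorbitol transporter (AF482011.1) by 1.02, a call lost in 9 of 19 alternatives (adjusted p up to 0.214). In the list of organic acids and proton pumps, 4 of 7 fell and none rose (median -0.88). Beside PPA2 these were malate dehydrogenase mdh1 (AF367442.1), which fell by 1.27 (4.84 and 4.65 against 3.16 and 3.77), isocitrate dehydrogenase icdh1 (AF367443.1), by 1.20 (1.54 and 1.67 against 0.54 and 0.27), and a second proton pump (AJ271440.1, -0.88).

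In the carotenoid and chlorophyll list 1 of 6 rose and 3 fell, with a median of -0.98. The zeaxanthin epoxidases, which turn zeaxanthin towards violaxanthin and abscisic acid, fell by 2.63 (AF071888.1) and 2.61 (AF159948.1, 2.78 and 2.79 against -0.40 and 0.74), and phytoene desaturase (AY822065.1), an early step of carotenoid synthesis, by 1.05. Magnesium chelatase subunit H (FJ842115.1), of chlorophyll synthesis, rose by 2.30 (-4.53 and -4.03 against -3.06 and -0.90), a call lost in 10 of 19 alternatives. Of 4 photosynthesis probes 1 rose, photosystem I assembly protein (EF640703.1, 1.05), and none fell (median -0.80). Of 6 auxin-binding and auxin-regulated proteins 1 rose and 1 fell, with a median of -2.07. The auxin-repressed protein (U93273.1) rose by 1.98 (6.49 and 6.79 against 8.61 and 8.61), a call lost in 6 of 19 alternatives. The auxin-induced protein (AY962829.1) fell by 2.86 (3.55 and 3.25 against -0.36 and 1.44). Without Ruantiaohongmei replicate 2 the median was -3.55 and 4 of 6 fell, and without replicate 1 it was -0.58.

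Of 13 probes for abscisic acid, drought and cold response none rose and 2 fell, with a median of -1.43. Among all tested probes 12.5% fell, and among the 236 described proteins 56. The 2 that fell here were the dehydrins DQ061115.1 (6.04 and 6.08 against 3.39 and 4.11, -2.31) and U34809.1 (-1.43), which protect cells that lose water. Of 11 heat shock proteins and chaperones none rose and 6 fell, with a median of -0.73. The 70-kDa heat-shock protein (EF640675.1) stood at 3.21 and 3.22 in Manao and at 0.43 and 0.40 in Ruantiaohongmei, a fall of 2.80 ± 0.21 (SE, adjusted p = 0.000351). Heat shock protein 90 (EF640665.1) fell by 2.06 (4.69 and 4.82 against 2.55 and 2.85) and a calreticulin (EY458122.1) by 1.76, the latter call lost in 6 of 19 alternatives. The small heat shock proteins did not follow them. AY500559.1 stood at -1.88 and 3.00 in Manao and at -1.05 and 1.74 in Ruantiaohongmei, and GQ850382.1 at -2.20 and 2.68 against -1.53 and 1.35. For both proteins replicate 2 was the higher array in each cultivar.

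In the list of aroma and fatty acid oxidation, 2 of 11 probes rose and 4 fell (median -0.62). The almond lipoxygenase (AJ418043.2) rose by 1.72 (-1.36 and -1.59 against -0.06 and 0.57) and alcohol dehydrogenase (EU395433.1), which makes alcohols for ester aroma, by 1.78 (0.32 and 0.15 against 1.30 and 2.72). The call of EU395433.1 was lost in 6 of 19 alternatives. Beside enoyl-CoA hydratase, allene oxide synthase (AJ633680.1), of jasmonate synthesis, fell by 1.93, alcohol dehydrogenase Adh-1 (EF640714.1) by 1.39 and phospholipase D alpha (EU117127.1) by 0.99. The 2 alcohol dehydrogenases thus moved in opposite directions. In the list of antioxidants, 2 of 11 rose and 2 fell (median 0.69). Class III peroxidase (EF640707.1) rose by 1.58, a call lost in 8 of 19 alternatives, and thioredoxin H (AF323593.1) by 1.07. Catalase 1 (AJ132444.1), which removes hydrogen peroxide, fell by 1.64 (3.37 and 3.30 against 1.68 and 1.70) and cat1 (AJ496418.1) by 1.20. Of 3 membrane channels and peptide transporters the peptide transporter PTR2 (AF213936.1) rose by 2.03 (-2.91 and -1.83 against -0.23 and -0.45), and the median was -1.09.

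**Figure D5:**
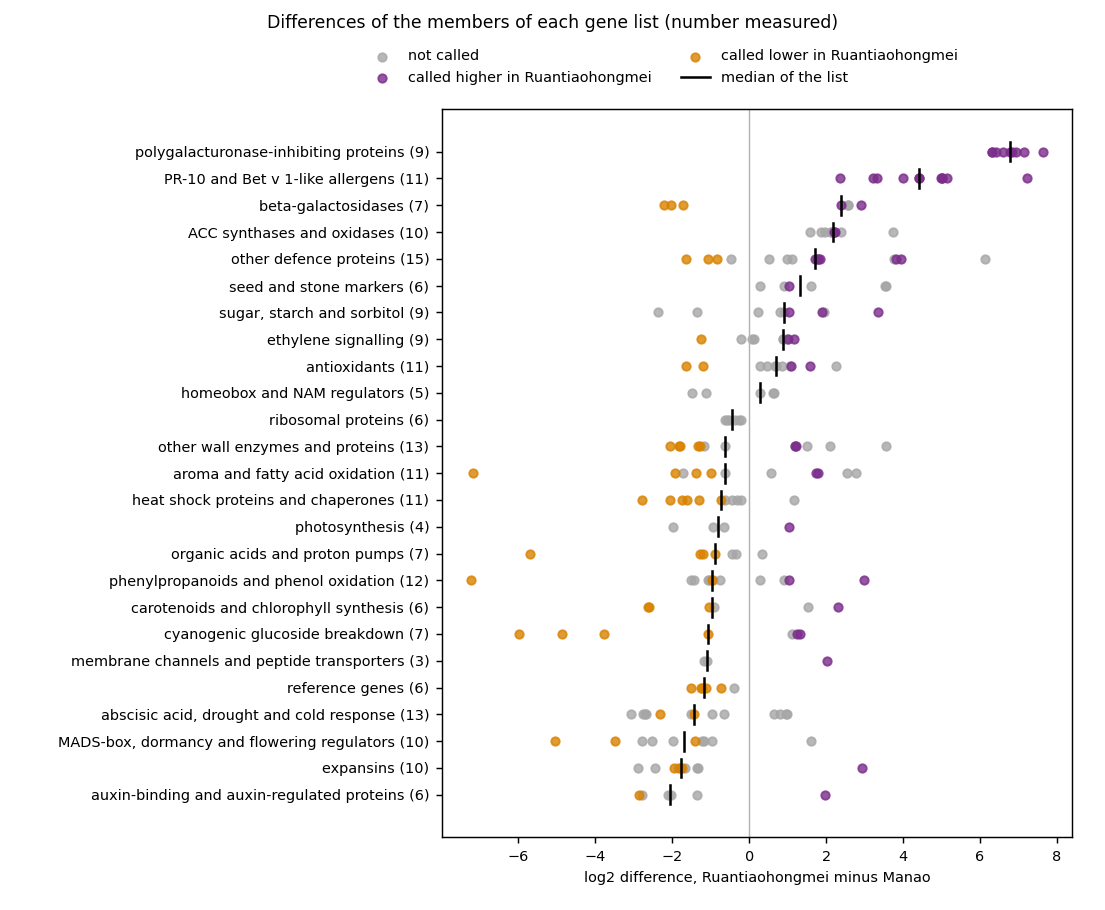
Log2 difference of Ruantiaohongmei from Manao (horizontal) for every measured member of the 25 gene lists, with the number measured in brackets and the median of each list as a black bar. The medians run from -2.07 for auxin-related proteins to 6.79 for PGIP, and only PGIP and PR-10 have all members called.

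Genes often used as constant standards were described only where a probe stood in the authors' 2-fold lists, so members that did not differ could be missing. Of 6 measured reference genes 5 were called lower in Ruantiaohongmei and none higher. Among all tested probes 12.5% were called lower, and among the 236 described proteins 56. The median was -1.18, beside a median of -0.11 over all tested probes, and for Xiyeqing minus Zhenkui it was also -1.18. Elongation factor 1 alpha (AY962821.1) fell by 1.51 (6.14 and 6.03 against 4.30 and 4.87). The actins AF321852.1, FJ560908.1 and EF585293.1 fell by 1.25 (3.69 and 3.65 against 2.41 and 2.43), 1.23 and 1.12. Alpha-tubulin (X67162.1) fell by 0.75 (6.12 and 6.19 against 5.32 and 5.50), and beta-tubulin (FJ157349.1) differed by -0.40 without a call (adjusted p = 0.331). Of 6 ribosomal proteins none was called; all 6 differences were negative, with a median of -0.45, and the largest was that of L16 (EF640709.1, -0.63).

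Many probes with large differences had no description. actca_Cluster3645.seq.Contig1 stood at -8.21 and -4.33 in Manao, well above background on 1 of those arrays, and at 5.46 and 5.43 in Ruantiaohongmei, a difference of 11.7 ± 1.09 (SE, adjusted p = 0.00092). actca_Cluster3871.seq.Contig1 stood at -8.04 and -4.11 against 5.49 and 5.49. Both were well above background on the 2 Xiyeqing arrays and on neither Zhenkui array. Contig2170 stood at 2.25 and 2.05 in Manao and was not well above background in Ruantiaohongmei. As scaled here it was at least 180-fold higher in Manao, and the green-apricot tag CB819565.1 at least 177-fold. Across the alternatives the log2 difference of Contig2170 smallest in size was -5.12, a smaller fall than this bound. Of the 1953 called probes 1599 had no description.

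In the authors' deposited table of listed probes, 1357 stood for this pair, 678 higher and 679 lower in Ruantiaohongmei. Of these 1077 were also called here in the same direction, none in the opposite direction, 269 were not called and 11 were not tested. The p-values were unadjusted, and 529 of the 1357 in the authors' deposited table of listed probes were under 0.05. In the authors' deposited table of all probes 1384 were under 0.05, and 4 after Benjamini-Hochberg adjustment.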

How the data were processed

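Cy3-labelled fruit RNA was measured on one-colour Agilent arrays. Per the file headers, the deposited intensity values were background-subtracted and detrended by Feature Extraction 10.7.1.1, whereas version 8.1 stands in the submitters' processing notes. Log2 values deposited by the authors have no stated normalization. They also deposited for each probe an unadjusted p-value and a fold, the p-values inferred from the values to come from a test with unequal variances (largest gap 8.98e-08).

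Here each processed intensity was put on the log2 scale and set against the 75th percentile of its array. Control spots and outlier-marked spots were left out, and spots of a probe were averaged. A probe was tested if some cultivar had it well above background on both of its arrays. limma 3.58.1 (R 4.3.3) fitted 4 cultivar means on all 8 arrays. The contrasts were Ruantiaohongmei minus Manao and its difference from Xiyeqing minus Zhenkui. The fit was tested on simulated data. Over single values an exact permutation test of 2 against 2 arrays cannot go below 0.333, so none was used.

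The 4 arrays and the 25 word-pattern lists were chosen with earlier results of these data known. Named genes were the 12 largest described differences each way with non-overlapping arrays, the 3 largest calls each way within a list (or its largest member if none was called), up to 5 differences between pairs each way, 2 undescribed probes each way, and all reference, seed and stone genes. Other proteins named were chosen after their values were seen. Alternatives were another background correction, scaling, filter or fit and leaving out each array. The files hold no mean signal, so normexp (offset 50) used the median signal. The 2 same-numbered arrays' deviations correlated at r = 0.0738, and the labels pair nothing.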

Additional observations from a re-analysis of the deposited data

Results flagged for a closer look

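The described proteins and the undescribed probe below were picked out because the difference of Ruantiaohongmei from Manao differed from that of Xiyeqing from Zhenkui in limma's test of the difference itself. Chalcone synthase (DQ856583.1) differed between the pairs by -6.79 on the log2 scale. Inosine-5'-monophosphate dehydrogenase (AF068844.1) differed by -6.001 and Contig1397 by -5.78. In each, both Ruantiaohongmei arrays lay below all 6 other arrays.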

How the results depend on the processing

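Of 97 named genes 89 were called, and 31 kept the call under every alternative that gave a value, 25 of them under all 19 and 6 under 18. The 19 were 10 with every array, 1 with the 4 arrays of row 1 alone and 8 that left 1 array out. Named values changed sign on 2 occasions, neither for a called gene: pru2 (X78120.1) ran from -2.768 without Ruantiaohongmei replicate 2 to 5.962 without replicate 1, and caffeic O-methyltransferase (X83217.1) from -1.038 without replicate 1 to 1.585 without replicate 2. Leaving out 1 array moved the count of calls between 535 (without Manao replicate 1) and 2090, those higher in Ruantiaohongmei between 245 and 876, those lower between 290 and 1214, and those that differed between the pairs between 9 and 21. Without Manao replicate 2 the calls were 643 (298 higher, 345 lower). Leaving out a Manao array leaves 1 array in that group, whose spread was then assumed to equal that of the others. Calls between the pairs numbered 11 with normexp correction, 11 with the filter on both arrays of Ruantiaohongmei or of Manao and 4 with the filter on all 4 arrays, the last 2 of which test fewer probes. They numbered 11 without Manao replicate 2, 10 without Xiyeqing replicate 2, and 9 and 10 without Zhenkui replicates 1 and 2. Normexp correction gave 53.8% of 1703 calls higher in Ruantiaohongmei, against 41.6% of 1953. Under it 191 of the main calls changed sign, all of them lower before and none called the other way; their median level was -5.81, against -2.13 over all probes. The cause was not tested. With the replicate number as a replicate block the calls were 1991 and those between the pairs 14. With the 4 arrays of row 1 alone the calls were 1947, and 1694 of the main calls were kept in the same direction. Among named genes that setting lost the calls of defensin 1, lipid transfer protein 3, extensin and magnesium chelatase subunit H. Lost too were class III peroxidase, alcohol dehydrogenase EU395433.1, calreticulin and alpha-tubulin. It added calls of AY012685.1 and KNOPE6. Dim probes limit precision, since 31 tested probes read the lowest value of the array on both Ruantiaohongmei arrays.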
